A study of Mus musculus with 36 samples.

Results

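Genes of the oocyte and of maternal effect were followed into mouse morulae whose fathers had been fed a high-fat diet (HFD) or a low-fat diet (LFD). The 10 genes were chosen by name, as members of the subcortical maternal complex (Nlrp5, Ooep, Padi6, Tle6 and Khdc3), of the zona pellucida (Zp1, Zp2 and Zp3) and of the pair of growth factors secreted by oocytes (Gdf9 and Bmp15), and all 10 were found among the 55487 genes of the morula count table. The rule holds no threshold on a measured value. One member dominated the group: per length, as TPM (counts over exon length, scaled to the same total in each library), Khdc3 averaged 568 over the 6 libraries, whereas the other 9 averaged 0.558 to 7.47 TPM. Between the paternal diets, 0 of the 9 members that could be tested passed an adjusted p of 0.05 in edgeR's quasi-likelihood test. Over all 13447 genes tested, 0 (0%) passed as well, so the count is not particular to the members.

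The fathers were wildtype males, labelled C57BL/6 and named C57BL/6N in the methods of the study, that received a purified diet with 60% (HFD) or 10% (LFD) of energy from fat from 6 to 8 weeks of age, for 2 weeks. Their cauda sperm were used for in vitro fertilization of oocytes from superovulated, unexposed wild-type females of 10 to 11 weeks, and morulae were picked after 72 h in culture. All embryos of both diets thus shared hormone-primed oocytes, fertilization in vitro and culture, and the sperm donor alone had been on the diet. RNA-seq libraries from 3 morula samples per diet were compared. The number of embryos in a library, and whether the samples of a diet had separate fathers, oocyte donors or fertilization dates, are not given in the sources used here, so the p-values measure the spread between these samples, which may be technical. Libraries are named here by the diet letter and the number of their column (LFD 1, 2 and 3, HFD 5, 6 and 7). The description field of 3 morula samples names the other diet than their title and treatment do, and the titles were followed. The column numbers are not those of the titles, so no column could be tied to a single sample and no fold change was computed under the other labelling.

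The 6 libraries held 11471251 to 12153141 counts, of which 22.8% to 26.9% fell on mtDNA-encoded genes, and 3 counts, the most that a count of 0 allows, correspond to 0.247 to 0.262 CPM (counts scaled to library size, per 1 M counts). Pearson correlations of log2 CPM across genes were 0.963 to 0.973 for pairs of libraries of different diets and 0.965 to 0.971 within a diet. For the label morula, 13 genes of compaction and early lineages were read: 13 had counts, 12 were high enough to be tested, and their summed level was 1467 to 1626 CPM. Dab2, an endocytic adaptor, had the highest CPM at 304 to 412 CPM. But it also averaged 88.9 CPM in the cauda sperm described below, at 148 CPM on LFD and 29.5 CPM on HFD. Pou5f1 (45.7 to 58.3 CPM) and Nanog (83.9 to 150.8 CPM), picked outside the naming rule given below, had 0 counts in that sperm. Sox2 had 2 to 14 counts in morulae, was not tested, and had 0 counts in sperm. Gata3, Krt8, Krt18 and Cdh1 averaged 47.5, 13.9, 46.6 and 91.5 CPM in sperm, against 41.4, 15.3, 35.5 and 345 CPM in morulae. Cdx2, Gata6, Tfap2c, Tead4 and Eomes averaged 0.0821 to 2.96 CPM in sperm. These sperm averages are over both diets. Counts of these genes alone do not fix the stage. Of 12 markers of cumulus and granulosa cells, the somatic cells that surround the oocyte, 6 (among them Fshr, Foxl2 and Cyp19a1) were at 0 counts in every library and all 12 together gave 0 to 11 counts per library, with Ptgs2 highest at 0 to 6 counts. Over the 13447 genes that passed a filter on low counts, edgeR called 0 (0%) at an adjusted p under 0.05 and 858 (6.38%) at an unadjusted p under 0.05. DESeq2 called 9 and limma-voom 0.

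The subcortical maternal complex is a protein assembly beneath the plasma membrane of the egg and cleaving embryo, built from products of genes that are transcribed in the growing oocyte. Embryos of mothers that lack Nlrp5, Ooep, Tle6 or Padi6 arrest in early cleavage, which defines these as maternal-effect genes. The zona pellucida is the glycoprotein coat that the oocyte secretes around itself, and GDF9 and BMP15 are members of the TGF-β family through which the oocyte acts on granulosa cells. The bulk of such maternal messengers is degraded when the embryonic genome is switched on at the 2-cell stage, several divisions before the morula. RNA of these genes at the morula stage may be left from the oocyte or newly transcribed, and counts per gene cannot tell these apart. In a library of whole embryos, fewer cells that hold a messenger and less of it per cell cannot be told apart either.

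Promoter sequences of RefSeq (GRCm38.p6, 250 bases before to 50 after an annotated start) were at hand for 7 of the 10 members and are given here for 3: Khdc3, the member highest in level per length, Ooep, a further member of the complex with a low count, and Zp3, the next in mean TPM, with Gdf9 within its range. Each is written 5′ to 3′ in the direction of the gene, and capitals mark 2 motifs that were searched on both strands, the E-box (CANNTG), which FIGLA, the oocyte factor that drives the zona genes, is known to bind, and CCAAT, which reads reversed and complemented where it lies on the other strand. Neighbouring matches may overlap, as in the run of capitals close to the start of Khdc3.
Khdc3, chr9:73102148-73102447, plus strand: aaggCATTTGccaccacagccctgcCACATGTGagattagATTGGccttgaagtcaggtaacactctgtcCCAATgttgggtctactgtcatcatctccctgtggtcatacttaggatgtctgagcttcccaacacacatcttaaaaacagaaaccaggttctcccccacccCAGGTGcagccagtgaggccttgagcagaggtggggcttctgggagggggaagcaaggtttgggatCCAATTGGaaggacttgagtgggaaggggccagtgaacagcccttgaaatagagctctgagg
Ooep, chr9:78378539-78378838, minus strand: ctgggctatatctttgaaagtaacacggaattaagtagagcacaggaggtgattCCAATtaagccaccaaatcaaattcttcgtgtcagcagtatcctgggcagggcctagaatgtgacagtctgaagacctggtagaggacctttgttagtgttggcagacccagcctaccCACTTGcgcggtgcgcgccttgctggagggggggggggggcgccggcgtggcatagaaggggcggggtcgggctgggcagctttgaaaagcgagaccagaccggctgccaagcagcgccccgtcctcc
Zp3, chr5:135979855-135980154, plus strand: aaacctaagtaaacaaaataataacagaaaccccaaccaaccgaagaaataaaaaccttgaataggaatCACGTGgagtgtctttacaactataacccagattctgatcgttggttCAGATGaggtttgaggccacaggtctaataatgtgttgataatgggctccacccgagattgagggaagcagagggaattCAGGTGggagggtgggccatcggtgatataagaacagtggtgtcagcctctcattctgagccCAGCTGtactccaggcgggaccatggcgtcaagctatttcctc

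The Khdc3 window held 5 E-box and 4 CCAAT matches and 0 CpG dinucleotides at a GC content of 52.7%, which is also the median of all promoters. The Ooep window held 1 E-box, 1 CCAAT match and 15 CpG at a GC content of 58.3%, and the Zp3 window 4 E-boxes, 0 CCAAT matches and 7 CpG at 46.3%. An E-box is found in 72.3% of the 32851 promoters of the table and CCAAT in 37.4%. TATAAA, found in 13.6% of promoters, and the octamer ATGCAAAT, found in 1.74%, had 0 matches in all 3 windows. The matches describe letters only, and the start used lies within the GENCODE span of the gene, downstream of its first base, for each of Khdc3, Ooep and Zp3.

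Khdc3 (ENSMUSG00000092622, chr9:73101836-73104438, plus strand, 4 exon blocks), which encodes the KH-domain protein FILIA of the complex, stood apart in level. Its counts were 8070, 6432 and 7407 in LFD 1, 2 and 3 and 6072, 7058 and 7871 in HFD 5, 6 and 7. After scaling by the trimmed mean of M-values (TMM), which corrects library totals for composition, the levels were 657, 569.9 and 635 CPM on LFD and 536, 594 and 624.5 CPM on HFD. HFD 5 was the lowest library and LFD 1 the highest, and the diets overlapped. The means were 621 ± 45.4 CPM (SD, n = 3) on LFD and 585 ± 45.0 CPM (SD, n = 3) on HFD. The log2 fold change of HFD over LFD was -0.09 with an SE of 0.09 (edgeR, adjusted p = 0.915), and its 95% interval of -0.27 to 0.10 corresponds to a ratio of 0.829 to 1.07. Of the exon length of Khdc3, 38.5% is shared with the gene model Gm20509 on the same strand, to which 0 CPM were assigned. How reads in shared exons were counted is not given in the sources used here.

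**Figure D1:**
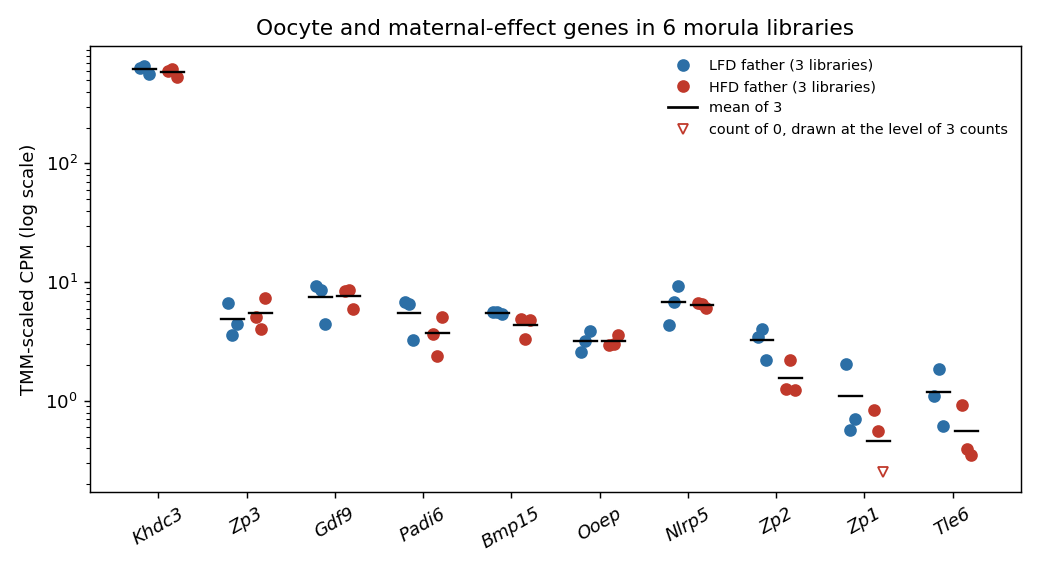
TMM-scaled CPM on a log axis for the 10 genes, ordered by level per length, with 1 point per library (blue, LFD; red, HFD) and a black line at the mean of 3 libraries. Khdc3 sits at 536 to 657 CPM and every other gene below 10 CPM, with the points of both diets interleaved for most genes, and the open triangle marks the Zp1 count of 0 in HFD 5.

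Per length, Khdc3 averaged 568 TPM over the 6 libraries (459 to 650), above 99.7% of the genes with a count. This was 76 times the level of the next member, Zp3, and the 2 ranges did not overlap. The order below it was Zp3 (7.47 TPM), Gdf9 (7.22 TPM), Padi6 (3.51 TPM), Bmp15 (3.10 TPM), Ooep (2.88 TPM), Nlrp5 (2.63 TPM), Zp2 (1.71 TPM), Zp1 (0.771 TPM) and Tle6 (0.558 TPM). Each of these neighbours overlapped in range over the libraries, so their order is not fixed beyond the spread, although Gdf9 was above Padi6, and Zp2 above Zp1, in 6 of 6 libraries. Khdc3 was thus far above the other members of the complex. Tle6 had the lowest mean of the 10, with a range that overlapped that of Zp1.

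Nlrp5 (ENSMUSG00000015721, chr7:23385889-23441922, plus strand) encodes MATER, an NLR-family protein at the core of the complex. It was measured at 6.76, 9.22 and 4.37 CPM in LFD 1, 2 and 3 and at 6.09, 6.73 and 6.51 CPM in HFD 5, 6 and 7. The HFD libraries lay within the range of the LFD libraries, and the log2 fold change was -0.07 ± 0.32 (SE; edgeR, adjusted p = 0.987).

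Ooep (ENSMUSG00000032346, chr9:78376109-78378725, minus strand) encodes FLOPED, a small KH-domain-like partner of MATER. Its levels were 3.18, 3.90 and 2.57 CPM on LFD and 3.62, 2.94 and 3.02 CPM on HFD, again with the HFD libraries inside the LFD range. The log2 fold change was -0.01 ± 0.41 (SE; edgeR, adjusted p = 0.998). At 30 to 44 counts per library, the 95% interval of its ratio ran from 0.542 to 1.82 in edgeR. The exact 95% interval of the ratio of summed counts, from counting alone, was narrower at 0.769 to 1.32. The smallest change in Ooep that would be called was not tested.

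Padi6 (ENSMUSG00000040935, chr4:140727355-140742643, minus strand) encodes a peptidylarginine deiminase-family protein needed for the cytoplasmic lattices of the egg. It was at 6.51, 3.28 and 6.78 CPM in LFD 1, 2 and 3 and at 5.12, 3.70 and 2.38 CPM in HFD 5, 6 and 7. LFD 1 and 3 were above every HFD library, and LFD 2 was below 2 of them. The means of 5.52 ± 1.95 CPM (LFD) and 3.73 ± 1.37 CPM (HFD; SD, n = 3 each) gave a log2 fold change of -0.57 ± 0.41 (SE; edgeR, adjusted p = 0.858).

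Tle6 (ENSMUSG00000034758, chr10:81590904-81601073, minus strand) encodes a co-repressor-like protein that belongs to the complex. Its counts were 23, 7 and 13 in LFD 1, 2 and 3 and 4, 11 and 5 in HFD 5, 6 and 7, or 1.20 ± 0.631 CPM and 0.558 ± 0.318 CPM (SD, n = 3 each). LFD 2 was below HFD 6, so the diets overlapped. The log2 fold change of -1.10 ± 0.75 (SE; edgeR, adjusted p = 0.850) had a 95% interval of -2.70 to 0.51, the widest of the tested members.

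Zp2 (ENSMUSG00000030911, chr7:120126772-120145291, minus strand), the zona glycoprotein that sperm bind and that is cleaved after fertilization, had the smallest unadjusted p among the members. Its counts were 50, 25 and 40 in LFD 1, 2 and 3 and 14, 15 and 28 in HFD 5, 6 and 7. These are 4.07, 2.22 and 3.43 CPM on LFD and 1.24, 1.26 and 2.22 CPM on HFD, with the ranges meeting at LFD 2 and HFD 7. The means were 3.24 ± 0.943 and 1.57 ± 0.562 CPM (SD, n = 3 each), and the log2 fold change was -1.04 ± 0.50 (SE; edgeR, unadjusted p = 0.0587, adjusted p = 0.771; 95% interval -2.11 to 0.04). The unadjusted p was 0.0331 without HFD 7 and 0.0395 without LFD 2, with adjusted p of 0.905 and 0.796 in edgeR, and it lay above 0.05 without each of the other libraries.

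Zp3 (ENSMUSG00000004948, chr5:135980099-135988624, plus strand) encodes the partner with which ZP2 forms the filaments of the zona. Its levels were 3.58, 4.43 and 6.69 CPM in LFD 1, 2 and 3 and 7.33, 5.05 and 4.05 CPM in HFD 5, 6 and 7. HFD 5 was the highest of all libraries for Zp3 while it was the lowest for Zp2. The log2 fold change was 0.16 ± 0.37 (SE; edgeR, adjusted p = 0.968).

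Zp1 (ENSMUSG00000024734, chr19:10914287-10920632, minus strand), which cross-links the filaments, did not pass the filter and was not tested. It had 7, 8 and 24 counts in LFD 1, 2 and 3 and 0, 10 and 7 counts in HFD 5, 6 and 7. The count of 0 in HFD 5 allows up to 0.255 CPM. LFD 3 gave most of the LFD counts, and the other 2 LFD libraries lay within the range of the HFD libraries. The ratio of the summed counts, 17 on HFD to 39 on LFD, scaled by the library totals, was 0.435, with an exact 95% interval of 0.231 to 0.787 from counting alone. That interval leaves out the spread between libraries. Fitted without the filter, the log2 fold change was -1.25 with an SE of 0.98 (edgeR, adjusted p = 0.786).

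Gdf9 (ENSMUSG00000018238, chr11:53431023-53437904, plus strand) was measured at 8.63, 4.43 and 9.35 CPM in LFD 1, 2 and 3 and at 5.91, 8.41 and 8.57 CPM in HFD 5, 6 and 7. The HFD libraries lay within the LFD range, and the log2 fold change was 0.03 ± 0.32 (SE; edgeR, adjusted p = 0.993). Bmp15 (ENSMUSG00000023279, chrX:6314107-6320721, minus strand), whose product forms dimers with GDF9, was at 5.62, 5.41 and 5.57 CPM on LFD and at 4.77, 4.88 and 3.33 CPM on HFD. Every HFD library was below every LFD library. The means were 5.53 ± 0.113 and 4.33 ± 0.862 CPM (SD, n = 3 each), yet the log2 fold change of -0.36 ± 0.33 (SE) did not pass the test (edgeR, adjusted p = 0.902; 95% interval -1.06 to 0.35). Such an order without overlap was not rare in this table: 12.1% of all tested genes showed it in either direction, and 6.18% with HFD below LFD, against 1 of the 9 tested members.

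**Figure D2:**
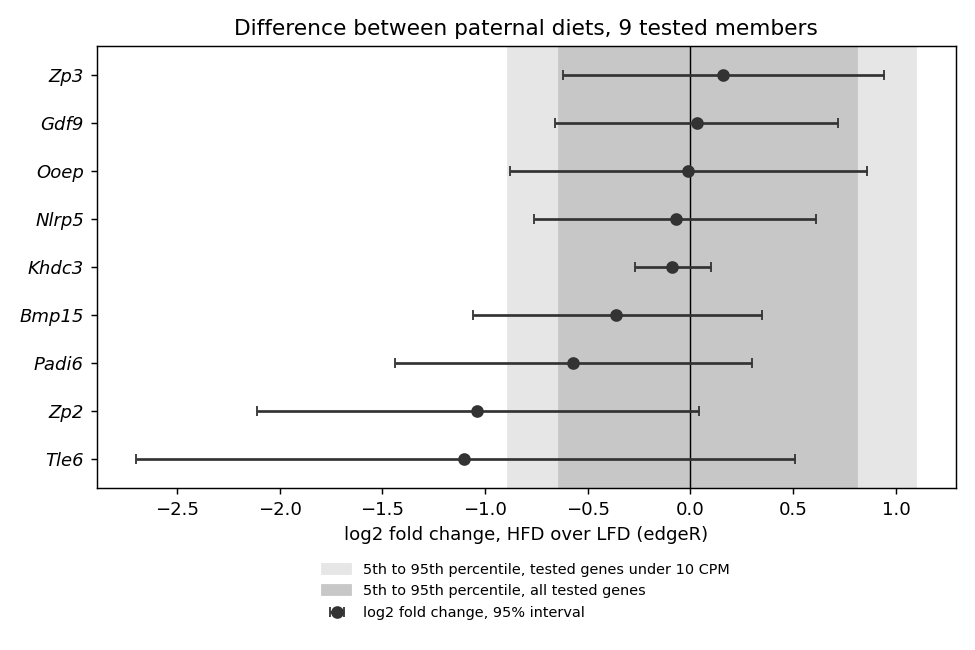
Log2 fold change of HFD over LFD with its 95% interval (edgeR) for the 9 tested members, over grey bands that hold the 5th to 95th percentile of the log2 fold changes of all 13447 tested genes (dark, -0.64 to 0.81) and of the 6699 tested genes with a mean under 10 CPM (light, -0.89 to 1.10). Every interval includes 0, that of Khdc3 is the narrowest, and the estimates of Zp2 and Tle6 lie below both bands.

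Across the 9 tested members, 7 had a negative and 2 a positive log2 fold change, against 47.8% negative values over all tested genes, and their median was -0.09 against 0.01 for all tested genes. At an unadjusted p under 0.05, edgeR, DESeq2 and limma-voom each found 0 of 9 members, against a background of 6.38% of tested genes in edgeR. The median was -0.27 without HFD 5, when Zp1 passed the filter and all 10 members were tested, -0.31 without LFD 2 (10 members), -0.31 without LFD 3 (9 members), -0.21 without LFD 1, -0.17 without HFD 7 and -0.23 without the filter (10 members each). Zp2 and Tle6 were below the 5th percentile of tested genes with a mean under 10 CPM, which is -0.89, while the other 7 tested members were inside the 5th to 95th percentile of all tested genes.

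Summed over the 10 members, the level was 698, 604 and 677 CPM in LFD 1, 2 and 3 and 570, 628 and 656 CPM in HFD 5, 6 and 7, a range of 1.22-fold. Khdc3 made up 93.8% to 95.3% of the members' counts in a library, so that this sum is close to Khdc3 alone. The other 9 members summed to 40.8, 34.2 and 41.9 CPM in LFD 1, 2 and 3 and to 34.4, 34.7 and 31.0 CPM in HFD 5, 6 and 7. LFD 1 and 3 were above all HFD libraries and LFD 2 was below HFD 5 and 6. The means were 39.0 ± 4.18 CPM on LFD and 33.4 ± 2.06 CPM on HFD (SD, n = 3 each), a log2 ratio of -0.22, and for all 10 members the log2 ratio was -0.09. Scaled by library totals alone, these ratios were -0.20 and -0.07, and that of all 10 members was 0.01 without HFD 5, -0.01 without LFD 1, and -0.14 without HFD 7 and without LFD 2. No p is given for these sums, since the members were chosen with results of these data known.

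No library was the highest or the lowest for all members. LFD 1 was the highest library for 4 members, LFD 3 for 3, LFD 2 for 2 and HFD 5 for 1, and HFD 5 was the lowest for 4, HFD 7 and LFD 3 for 2 each, and LFD 1 and LFD 2 for 1 each. LFD 3, for example, was highest for Padi6, Gdf9 and Zp1 and lowest for Nlrp5 and Ooep. The spread over the 6 libraries, as a coefficient of variation, was 7.46% for Khdc3, 15.0% for Ooep, 17.4% for Bmp15, 47.7% for Zp2, 64.7% for Tle6 and 86.8% for Zp1. Counting error alone gives 1.18%, 16.3%, 13.1%, 18.7%, 30.9% and 32.7% for these genes in the same order. Ooep thus spread no more than counting alone would, and Bmp15 little more. Khdc3 had the largest spread relative to its counting error, although the smallest in percent, and Padi6 (38.8% against 13.5%), Gdf9 (25.5% against 10.5%), Zp3 (29.0% against 12.8%), Nlrp5 (23.5% against 11.3%), Zp2, Tle6 and Zp1 also spread more than 2 times as far as counting alone. These are separate samples, so their spread holds all differences between samples.

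**Figure D3:**
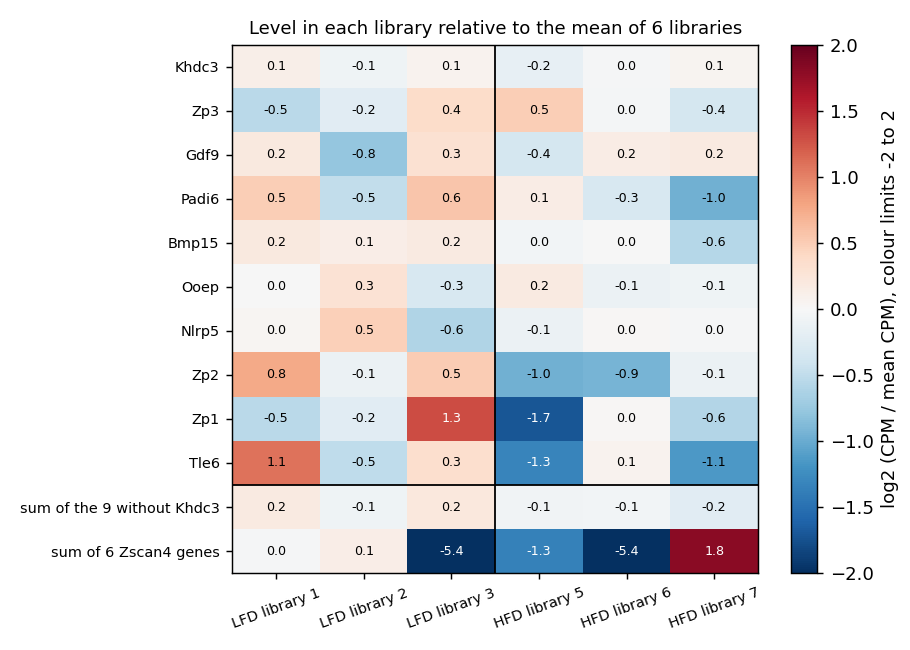
Log2 of the level in a library over the mean of the 6 libraries, for the 10 members, for the sum of the 9 members without Khdc3 and for the sum of 6 Zscan4 genes, with libraries in columns (LFD left of the line) and values under the level of 3 counts set to that level. Khdc3 stays near 0 in all columns, no column is red or blue throughout, and the Zscan4 row swings far more than any member.

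Genes related to the members were counted beside them. Of 11 further genes of the NLRP family and the subcortical complex, 9 were tested, 0 passed in either direction at an adjusted p of 0.05 (edgeR), and all 9 had a negative log2 fold change, with a median of -0.47 against 0.01 over all tested genes. Their summed level was 70.6, 65.7 and 67.2 CPM in LFD 1, 2 and 3 and 51.3, 54.4 and 64.0 CPM in HFD 5, 6 and 7. Nlrp4c, of the Nlrp4 cluster, had both the highest mean level and the highest log2 fold change of the tested genes, at 22.9 ± 1.29 CPM on LFD and 22.2 ± 2.06 CPM on HFD (SD, n = 3 each; log2 fold change -0.04). Nlrp9a was lowest in log2 fold change (-0.93 ± 1.03, SE; edgeR, adjusted p = 0.924), with 21, 2 and 34 counts on LFD and 0, 7 and 24 on HFD. Zbed3, which interacts with the complex, was picked after its values were seen as the gene of this list with an unadjusted p under 0.05: it was at 25.3, 21.8 and 23.0 CPM on LFD and at 18.7, 13.5 and 18.4 CPM on HFD, without overlap (log2 fold change -0.47 ± 0.18, SE; edgeR, unadjusted p = 0.0216, adjusted p = 0.717). The count of negative values was 7 of 9 (median -0.21) without LFD 2, 6 of 9 (median -0.28) without HFD 5 and 7 of 9 (median -0.20) by limma-voom. Members of the NLRP clusters are close copies of each other, and reads shared between copies may have been dropped or split in counting.

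Of 17 other genes of the oocyte and egg, 4 reached the filter, 3 of them with a negative log2 fold change (median -0.27), and 0 were called by edgeR. Npm2, the egg chaperone nucleoplasmin, was at 2.85, 3.72 and 4.03 CPM on LFD and at 1.68, 2.19 and 1.82 CPM on HFD, without overlap (log2 fold change -0.89 ± 0.45, SE; edgeR, adjusted p = 0.772). Gpr3, the receptor that holds the oocyte in meiotic arrest, had the highest CPM at 5.06 ± 0.431 CPM on LFD and 3.97 ± 0.238 CPM on HFD (SD, n = 3 each; log2 fold change -0.35; edgeR, adjusted p = 0.909). Kit, the receptor tyrosine kinase on the oocyte surface, had the highest log2 fold change of the 4 tested genes (0.13). The median of this list turned with the libraries, from -0.46 without HFD 5 to 0.32 without LFD 2, and was 0.79 when all 17 were fitted without the filter. The 7 oocyte transcription factors of the list, Figla and Nobox among them, were all too low to be tested and gave 15 to 46 counts together in a library. Nobox had the highest mean of these at 6, 11 and 8 counts on LFD and 24, 1 and 4 on HFD, and Figla had 2 counts in a single library.

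Genes that store or degrade maternal messengers and maternal chromatin factors had medians nearer to 0 than the NLRP list (-0.47) and the list of other oocyte genes (-0.27). The members' own median was -0.09. Of 11 genes of messenger storage and decay, 9 were tested, 0 were called by edgeR, and 6 were lower and 3 higher in estimate (median -0.13). Ago2, an Argonaute protein, had the highest CPM, at 1410, 1406 and 1357 CPM on LFD and 1413, 1210 and 917 CPM on HFD, with HFD 7 lowest (log2 fold change -0.24; edgeR, adjusted p = 0.771). Btg4, the adaptor of deadenylation at maternal clearance, had 3 to 14 counts per library (log2 fold change -0.25), and Eif4e1b, an oocyte cap-binding protein, had the highest log2 fold change of the tested genes at 0.29. Pabpc1l, picked after its values were seen, was too low to be tested. It had 1, 0 and 3 counts on LFD and 16, 9 and 19 on HFD (log2 fold change 3.31 without the filter, edgeR, adjusted p = 0.43). Pabpn1l, also untested, had 1, 1 and 0 counts on LFD and 0, 0 and 2 on HFD. Of 12 chromatin factors, 12 were tested, 0 were called, and 7 were lower and 5 higher in estimate (median -0.02). Dppa3 (Stella), which guards maternal methylation in the zygote, had the highest CPM of the list at 2884 ± 207 on LFD and 2576 ± 233 on HFD (SD, n = 3 each; log2 fold change -0.16; edgeR, adjusted p = 0.771). Ring1, a Polycomb E3 ligase, had the highest log2 fold change of the list (0.44; edgeR, unadjusted p = 0.0405, adjusted p = 0.757), and Dnmt1, the maintenance methyltransferase, the lowest (-0.17).

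**Figure D4:**
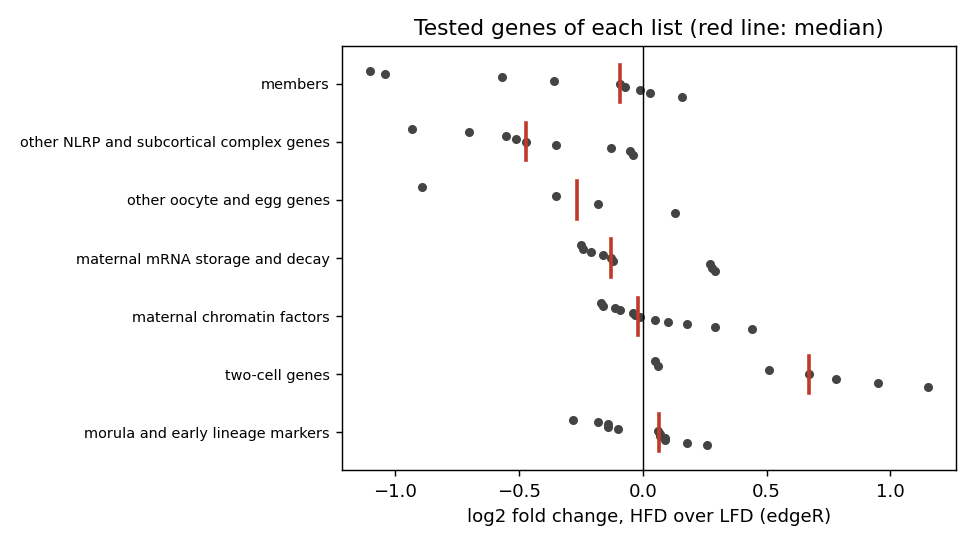
Log2 fold change of HFD over LFD (edgeR) for each tested gene of the members and of 6 further lists, with a red line at the median of a list. The 9 tested NLRP and subcortical complex genes all lie left of 0 and the 7 tested 2-cell genes all lie right of 0, and 0 of the genes shown passed an adjusted p of 0.05.

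Genes that mark the 2-cell stage were included as the counterpart of the oocyte list, since they are switched on when maternal RNA is cleared. Of 11, 7 were tested, 0 were called by edgeR, and all 7 had a positive log2 fold change, with a median of 0.67. Zscan4d, a zinc-finger gene of the 2-cell programme, had the highest log2 fold change (1.15 ± 1.20, SE; edgeR, adjusted p = 0.919), with 19, 55 and 0 counts on LFD and 11, 0 and 166 on HFD. The 6 Zscan4 genes together gave 128, 131 and 1 counts in LFD 1, 2 and 3 and 47, 0 and 464 in HFD 5, 6 and 7, so that libraries of the same diet ranged from none to most of the signal. HFD 7 decided the direction: without it, 6 of the 7 tested genes had a negative log2 fold change (median -1.30). The median was 0.08 without LFD 3, 0.97 without HFD 5, 1.15 without HFD 6 and 0.15 by limma-voom. Tdpoz1 had the highest mean level of the list at 16.7 ± 5.57 CPM on LFD and 17.3 ± 1.91 CPM on HFD (SD, n = 3 each; log2 fold change 0.05). The Zscan4 genes are near-identical copies and single members are uncertain. The members' sum without Khdc3 was lowest in HFD 7, at 31.0 CPM against 34.2 to 41.9 CPM in the other libraries. Its range over the libraries was 1.35-fold, far smaller than that of the Zscan4 genes.

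Whether the fathers' sperm carried the same messengers was examined in cauda sperm of mice on the same diets (3 libraries each, 2560219 to 4062321 counts, in which 3 counts are 0.738 to 1.17 CPM). Khdc3, Zp1, Zp3, Ooep and Bmp15 had 0 counts in all 6 sperm libraries, and 8 of the 10 members had at most 3 counts in each. Tle6 had 54 counts, 25, 1 and 21 in the LFD libraries and 0, 7 and 0 in the HFD libraries. Gdf9 had 28 counts, 14, 2 and 0 on LFD and 0, 4 and 8 on HFD. These counts varied as much within a diet as between the diets and were not tested. The share of counts on mtDNA-encoded genes, 43.5% to 64.7% on LFD and 78.1% to 84.3% on HFD, moved with the diet in sperm and its part in these values was not tested. The CPM of 3 counts is set on totals that include these counts, so over the remaining genes the limit is higher. A count of 0 in sperm therefore says little for members that are low in morulae. Sperm and morula tables were processed apart, so levels are given side by side only. In the morulae, markers of sperm and spermatids gave 6 to 36 counts per library over 8 genes, with Tnp1, Tnp2 and Odf1 at 0 in every library and Ldhc, a germ-cell lactate dehydrogenase, highest at 1.68 ± 1.26 CPM on LFD and 0.893 ± 0.118 CPM on HFD (SD, n = 3 each; log2 fold change -0.90; edgeR, adjusted p = 0.887).

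The genes whose level followed the members most closely over the 6 morula libraries were sought among 6747 genes with a mean of at least 10 CPM. For the sum of all 10 members these were Mtx2 (Pearson r = 0.9871), Dut (0.9853), Phyh (0.9785), Pak1ip1 (0.9659) and Anapc1 (0.9651), and 34 genes had an r over 0.9. For the sum of the 9 without Khdc3 they were Tnrc6c (r = 0.9878), Arf2 (0.9692), Akirin2 (0.9649), Zswim5 (0.9613) and Zbtb2 (0.9572), with 54 genes over 0.9. The 2 lists of 5 had 0 genes in common. With 6 libraries and 6747 genes compared, the highest values are a description of these libraries only, and all points share library size and scaling.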

How the data were processed

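Morula and cauda sperm RNA (RNeasy, Nextera libraries, 75-bp reads, paired-ended for morulae and single-ended for sperm) was sequenced by the authors, who deposited raw counts per gene from featureCounts, without normalization, after BBDuk trimming and STAR alignment to GRCm38. The build was also named in the submitters' processing notes. The deposited tables hold an exon length per gene, which was used for TPM. Libraries were grouped by the diet letter in their column name. Another 24 columns of per-sample values (round spermatids, liver, eWAT and gastrocnemius), whose names show neither a sample nor a group, were not used. Symbols were found for 55141 of 55487 morula identifiers.

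Morula counts were fitted with edgeR 4.0.16 in R 4.3.3 (filterByExpr with a minimum count of 10, TMM, quasi-likelihood test of HFD over LFD without a block, two-sided, Benjamini-Hochberg over all tested genes, threshold 0.05). Alternatives were DESeq2 size factors, library totals, no filter, DESeq2 1.42.0, limma-voom (limma 3.58.1) and leaving out each library; sums without Khdc3 were added after seeing the data. Scripts were tested on simulated counts of 13447 genes, of which 200 were changed. With a simulated log2 change of 1, edgeR recovered 46.5% of the changed genes with 10 false calls. With a log2 change of 2 it recovered 74.0% with 7 false calls. The 200 were drawn from all 13447 genes, whatever their level. These shares therefore do not give the recovery for genes as low as most members. Ratio intervals are exact 95% binomial intervals and, like the limit of 3 counts for a 0, cover counting error only. Sequences came from RefSeq, gene positions from GENCODE vM21. Figures were drawn with matplotlib 3.10.9.

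The members, the 6 further gene lists and the 3 marker lists were chosen with earlier results of these data known. Named were all members, the highest and lowest log2 fold change among the tested genes of each list, the highest mean CPM of each list and marker list, and the 5 genes most correlated with the members' sum. Others are marked in the text.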

Additional observations from a re-analysis of the deposited data

How the results depend on the processing

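No member was called under any alternative run. Over all tested genes, 63 were called without the filter (of 29785), 9 by DESeq2, 2 without HFD 5 (0 to 2 over the 6 fits that leave out a library), and 858 passed an unadjusted p of 0.05. The members' median log2 fold change was -0.31 to -0.11 when a library was left out, and -0.23 without the filter. Of 264 single-gene values under alternatives, for 24 genes, 243 kept their direction, 21 (in 11 genes) turned it and 0 passed the threshold. Ooep turned to 0.0072 with library totals and 0.0022 by limma-voom, and Kit to -0.28 by limma-voom. Leaving out a library gave -0.15 to 0.15 for Ooep, -0.11 to 0.44 for Zp3, -0.31 to 0.21 for Nlrp5, -0.24 to 0.22 for Gdf9, -0.12 to 0.0036 for Nlrp4c, -0.57 to 0.63 for Kit, -0.0032 to 0.50 for Eif4e1b, -0.71 to 0.17 for Btg4, -0.19 to 0.27 for Tdpoz1, -2.12 to 2.58 for Zscan4d and -0.04 to 0.17 for Dab2. The cause was not tested. Zp2 (-1.37 to -0.84), Padi6 (-0.87 to -0.33), Tle6 (-1.66 to -0.63), Khdc3 (-0.15 to -0.03) and Bmp15 (-0.45 to -0.20) stayed negative in every alternative, and Nlrp9a ran from -2.39 to -0.18, Ago2 from -0.39 to -0.09, Dppa3 from -0.22 to -0.10, Dnmt1 from -0.28 to -0.10, Ldhc from -1.41 to -0.41 and Ring1 from 0.23 to 0.59 when a library was left out. The log2 ratio of the members' summed CPM (-0.14 to 0.01 when a library was left out) moved by less than the spread between libraries under every alternative run. For the ratio of Khdc3 to the next member, the alternative was TPM over genes not encoded in mtDNA, which gave 75.6 against 76. Within a library both genes share that scaling, so this alternative could hardly move the ratio. In sperm, 2 members exceeded 3 counts in all, and 0 had a count in every library. No paired analysis was possible because the column numbers of the LFD and HFD libraries (1 to 3 and 5 to 7) are not shared. The tested members below 10 CPM had wider 95% intervals in edgeR than Khdc3. For Ooep, the edgeR interval spans ratios of 0.542 to 1.82, and the interval from counting alone spans 0.769 to 1.32.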
